A study of Mus musculus with 15 samples.

Results

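The transcripts of the transcription factor p53 and of genes around it were followed through the germinal centre of the mouse. The members are the 8 rows of the deposited expression table with the symbols Trp53inp1, Trp53, Mdm2, Ccng1, Zmat3, Phlda3, Gadd45a and Sesn2, out of 23420 rows. They were chosen by name, with Trp53inp1 put first because of its level across these same libraries, so the levels of the members are given as a description and carry no test. The table holds 15 libraries of 100 sorted cells, 3 for each of 5 groups, taken from draining lymph nodes on day 12 after immunization with NP-CGG in CFA. All donor B cells carried the heterozygous B1-8hi knock-in, an antigen receptor heavy chain that binds the hapten NP, were marked by CD45.1 and had been moved into C57BL6 hosts. Donors of 4 groups also carried 1 copy of the Bcl6-YFP reporter, and their B220+ CD38lo GL7hi germinal centre cells were split into the dark zone (DZ, CXCR4hi CD86lo) and 3 light zone fractions (CXCR4lo CD86hi). Fraction 3 was CD69lo Bcl6hi, Fraction 2 CD69hi Bcl6hi and Fraction 1 CD69hi Bcl6lo. The germinal centre derived plasmablasts (GC-PB, CD138hi CD44hi tdTomato+) came from other donors, with the S1pr2-ERT2cre transgene and the Ai14 reporter in ROSA, whose hosts had received tamoxifen on days 6, 7 and 8. S1pr2 drives this Cre in germinal centre B cells, and tdTomato marks cells in which it had acted. The age and number of the animals are not given in the sources used here, and the libraries are described only as independent preparations, so their spread may be technical.

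p53 is a transcription factor that cells stabilise after DNA damage and other stress, and its targets halt the cell cycle, repair DNA or start apoptosis. Mdm2 is both a target and the ubiquitin ligase that destroys p53, which closes a negative feedback loop. Germinal centre B cells tolerate the DNA breaks of class switching and somatic hypermutation, and the repressor BCL6 is known to hold down the p53 gene in them. Because p53 is controlled largely at the level of the protein, its own transcript does not report its activity.

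Levels are deposited values after every library was brought to the same total of 38594.1, with the ribosomal precursor Rn45s left out of the total. At that scale 1 counted molecule is worth between 0.107 and 0.233 of a level, depending on the library, and levels are compared only within a gene. The libraries stand for 184103 to 376992 molecules. The unscaled totals were highest in Fraction 1 (110747 ± 3890, SD, n = 3) and lowest in Fraction 3 (30564 ± 2305), so the scale of the values bears on several members and is given beside them. The same amount of spike-in RNA went into every tube for normalization, and whether the deposited values were scaled by it is not given in the sources used here. Fraction 1 and GC-PB libraries carried Xist (means 10.5 and 12.8) and the other 9 libraries had it at 0, while Ddx3y of the Y chromosome was between 4.80 and 5.47 on average in those 9, 0.0254 in Fraction 1 and 0 in GC-PB. Donor sex and cell fraction therefore cannot be told apart between Fraction 1 and DZ, Fraction 3 or Fraction 2. Between GC-PB and Fraction 1 the donor genotype with tamoxifen cannot be told apart from the cell type. Between GC-PB and DZ, Fraction 3 or Fraction 2, donor sex, genotype and tamoxifen all go with the cell type. The summed level of 5 plasmablast markers was 1751 to 2355 in GC-PB and 13.5 to 48.3 in the other groups. Bcl6 was at 0 in GC-PB. Of 6 T cell markers Cd3e and Cd4 were at 0 in all 15 libraries, and the sum was 0 to 1.24 in GC-PB and 1.45 to 5.88 in the germinal centre libraries, where nearly all of it came from Lck. The sum of 6 myeloid markers was at most 0.701 in any library, with Itgam and S100a8 at 0. The sum of 4 naive B cell markers was 2.29 to 4.34 in DZ, 6.90 to 11.9 in Fraction 3, 6.10 to 8.41 in Fraction 2, 12.9 to 16.5 in Fraction 1 and 5.46 to 16.8 in GC-PB. Fcer2a (CD23) made up most of it in Fraction 1 (14.1 ± 2.14, SD, n = 3). The part of these transcripts in the results below was not tested.

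Of the 8 members, 6 have an entry among the RefSeq promoters (GRCm38.p6, the mm10 assembly), and the 250 bases before the start site were searched for the decamer half-site of p53. Trp53inp1 and Zmat3 have no entry and were not searched, and bases after the start site were left out. The half-site reads the same pattern on either strand and was matched exactly. It occurred in the windows of Trp53, Mdm2, Ccng1 and Gadd45a, not in those of Phlda3 and Sesn2, and in 7.13% of all 32851 windows of this length. The windows of Trp53 and Mdm2 are printed because these genes form the feedback loop. Each is written 5′ to 3′ along the gene and ends at the base before its start site, with the half-site in capitals. That of Trp53 lies at chr11:69580109-69580358 on the plus strand, and that of Mdm2 at chr10:117710759-117711008 on the minus strand.
Trp53: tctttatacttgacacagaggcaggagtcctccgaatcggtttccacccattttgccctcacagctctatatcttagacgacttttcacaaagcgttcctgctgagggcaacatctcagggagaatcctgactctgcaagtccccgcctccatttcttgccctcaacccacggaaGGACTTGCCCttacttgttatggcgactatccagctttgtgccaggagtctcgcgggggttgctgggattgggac
Mdm2: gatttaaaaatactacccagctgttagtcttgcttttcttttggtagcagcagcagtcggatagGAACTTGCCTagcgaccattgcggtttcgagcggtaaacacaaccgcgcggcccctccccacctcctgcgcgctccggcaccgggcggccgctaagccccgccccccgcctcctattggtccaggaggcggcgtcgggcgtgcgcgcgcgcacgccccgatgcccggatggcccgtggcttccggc
In Ccng1 the half-site was GGGCAAGCCT at chr11:40755462-40755471, and in Gadd45a it was GGGCTAGCCC at chr6:67037438-67037447, both on the minus strand. Start sites here are those of the promoter entries, and the gene positions given below are from GENCODE. The GENCODE start of Gadd45a (67037457) lies upstream of its promoter entry's start, so by GENCODE this half-site falls inside the gene. A match describes these letters and is not evidence of binding.

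Trp53inp1 (chromosome 4, 11156431 to 11174379, plus strand) encodes tumour protein p53 inducible nuclear protein 1, a stress-induced partner of p53 that also acts in autophagy. It was abundant in plasmablasts, present in the dark zone and almost absent from Fraction 1. In GC-PB its level was 32.4, 43.5 and 51.0 in the 3 libraries, from 139, 221 and 247 molecules. In DZ it was 5.61, 4.69 and 4.63, from 35, 34 and 32 molecules. In Fraction 3 it was 3.18, 1.93 and 2.47, and in Fraction 2 it was 1.69, 1.38 and 1.86. In Fraction 1 it was 0.235, 0.322 and 0.123, from 2, 3 and 1 molecules. The 5 groups thus fell in the order GC-PB, DZ, Fraction 3, Fraction 2, Fraction 1, and no neighbours in that order overlapped. Of 11190 genes above 0 in at least 3 libraries, 51 had their 5 groups apart in this way in some order (0.456%), and 5 had this order: Trp53inp1, Igj, Ero1lb, Pqlc3 and Serinc3.

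**Figure D1:**
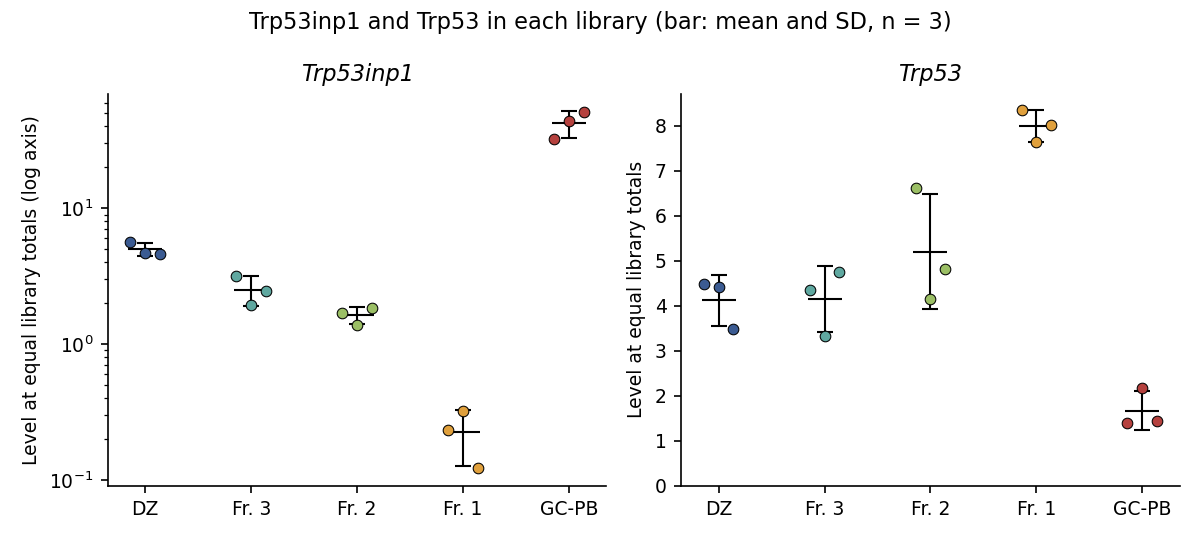
Level at equal library totals of Trp53inp1 (left, log axis) and Trp53 (right, linear axis from 0) in every library of the 5 groups. Points are libraries, and bars are the mean and SD over 3 libraries. Trp53inp1 is between 32.4 and 51.0 in GC-PB and at most 0.322 in Fraction 1, where Trp53 reaches its highest levels of 7.63 to 8.35.

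From the dark zone to Fraction 1 the mean level of Trp53inp1 went from 4.98 ± 0.546 (SD, n = 3) over 2.53 ± 0.630 and 1.64 ± 0.241 to 0.227 ± 0.0999. Expressed as counted molecules per library total, DZ held 1.93 times as much as Fraction 3 (95% exact binomial interval 1.35 to 2.79, counting error only). Fraction 3 held 1.56 times as much as Fraction 2 (1.01 to 2.42), an interval whose lower bound is close to equality. Fraction 2 held 7.11 times as much as Fraction 1 (3.02 to 20.5). GC-PB held 8.63 times as much as DZ (6.98 to 10.8) and 185 times as much as Fraction 1 (84.3 to 505), where the wide interval reflects the 6 molecules of Fraction 1. On the log2(level + 1) scale of the fit, which understates changes of low genes, the differences were -0.77 ± 0.18 (SE) for Fraction 3 minus DZ, -0.40 ± 0.18 for Fraction 2 minus Fraction 3, -1.11 ± 0.18 for Fraction 1 minus Fraction 2 and 5.12 ± 0.18 for GC-PB minus Fraction 1. As deposited, without scaling, the order of the means was the same (72.5 ± 20.7 in GC-PB, 3.94 ± 0.799 in DZ, 1.91 ± 0.587 in Fraction 3, 1.65 ± 0.305 in Fraction 2 and 0.628 ± 0.293 in Fraction 1). Fractions 3 and 2 then overlapped. In libraries of pooled cells, fewer cells with the transcript and less transcript per cell cannot be told apart.

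Of the 5 plasmablast markers only Igj fell in the same order as Trp53inp1 across the germinal centre groups. The summed plasmablast markers were 45.0 to 48.3 in DZ, 32.2 to 40.3 in Fraction 3, 25.4 to 30.1 in Fraction 2 and 13.5 to 17.8 in Fraction 1. Igj, the joining chain of secreted antibodies, made up most of the sum in the first 3 of these groups, with means of 40.9, 30.8 and 20.3, and 6.02 in Fraction 1. As a share of the GC-PB mean, Igj was 2.28% in DZ, 1.71% in Fraction 3, 1.13% in Fraction 2 and 0.335% in Fraction 1. For Trp53inp1 these shares were 11.8%, 5.97%, 3.88% and 0.536%. Xbp1, which drives the secretory programme, stayed between 2.06% and 2.78% in the 4 groups. Sdc1, which encodes CD138, was at 0 in DZ, Fraction 3 and Fraction 2, and Prdm1 (Blimp-1) was at most 0.668%. Mzb1, which aids antibody secretion, had shares close to those of Trp53inp1 in DZ and Fraction 3 (11.4% and 6.97%) and kept 4.29% in Fraction 1. Irf4, the fifth marker, is also induced in activated B cells, and stood at 2.85% in DZ and 35.5% in Fraction 1. The share of Trp53inp1 in DZ was above those of all 5 markers, and the part of plasmablast transcripts in its order among the germinal centre groups was not tested.

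**Figure D2:**
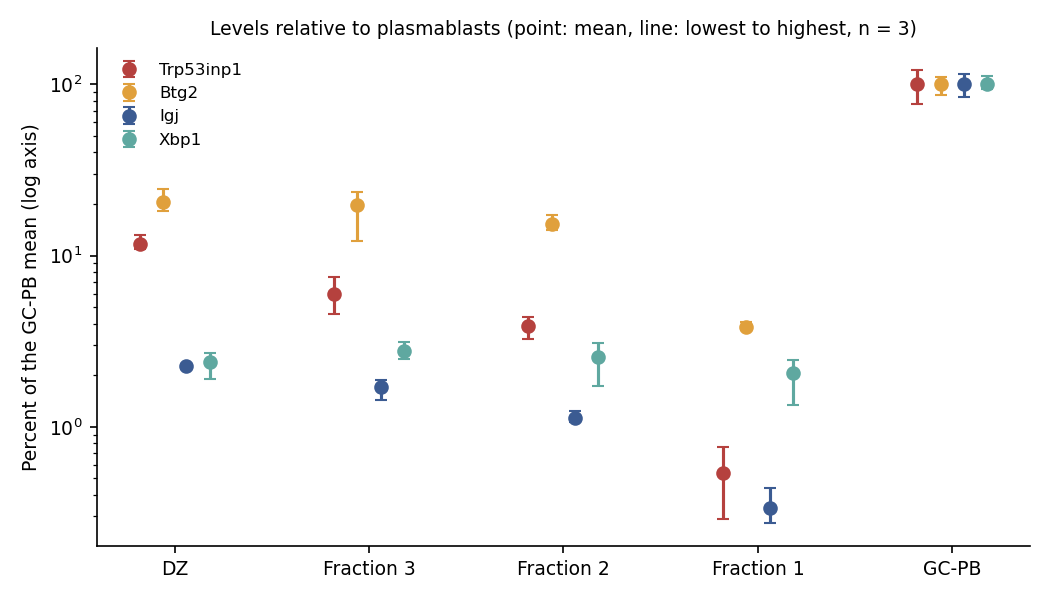
Level of Trp53inp1, Btg2, Igj and Xbp1 as a percent of the mean of the 3 GC-PB libraries (log axis) in the 5 groups. Points are means over 3 libraries and lines run from the lowest to the highest library. Trp53inp1 is at 11.8% in DZ and 0.536% in Fraction 1, Igj at 2.28% and 0.335%, and Xbp1 stays between 2.06% and 2.78% outside GC-PB.

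Among the 5509 tested genes with a mean level of at least 1, the 5 whose log2 levels followed Trp53inp1 most closely over the 15 libraries were Igj (Pearson r = 0.984), Serp1 (0.983), Itga4 (0.979), Mzb1 (0.976) and Tram1 (0.976). Serp1, Mzb1 and Tram1 serve the folding and transport of proteins in the endoplasmic reticulum, and Itga4 is the integrin subunit alpha 4. Mzb1 was 238 ± 16.2 (SD, n = 3) in GC-PB, 27.0 ± 2.31 in DZ and 16.6 ± 1.05 in Fraction 3. The 5 that ran most opposite were Ncf1 (r = -0.987), Hspa8 (-0.983), Ldha (-0.982), Impdh2 (-0.977) and Il21r (-0.974). Ldha, the lactate dehydrogenase of glycolysis, was 54.5 ± 4.65 in Fraction 1, 18.2 ± 1.35 in DZ and 5.37 ± 0.860 in GC-PB. These correlations describe libraries that share 5 groups, and the large step between GC-PB and the rest enters all of them.

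Trp53 (chromosome 11, 69580359 to 69591873, plus strand), the gene of p53 itself, ran the other way. Its level in Fraction 1 was 8.35, 7.63 and 8.00, from 71, 71 and 65 molecules. In Fraction 2 it was 6.62, 4.15 and 4.81, in Fraction 3 it was 4.34, 3.33 and 4.75, and in DZ it was 4.48, 4.42 and 3.47. In GC-PB it was 1.40, 2.17 and 1.45, from 6, 11 and 7 molecules. All libraries of Fraction 1 lay above and all of GC-PB below every other library, whereas DZ, Fraction 3 and Fraction 2 overlapped. Fraction 1 held 1.54 times as many Trp53 molecules per library total as Fraction 2 (1.24 to 1.93) and 4.73 times as many as GC-PB (3.09 to 7.55). The log2 differences were 0.56 ± 0.18 (SE) for Fraction 1 minus Fraction 2 and -1.76 ± 0.18 for GC-PB minus Fraction 1. As deposited the means were 21.9 ± 0.667 in Fraction 1, 5.20 ± 1.33 in Fraction 2, 3.12 ± 0.737 in Fraction 3, 3.27 ± 0.678 in DZ and 2.86 ± 0.936 in GC-PB. On that scale the difference between Fraction 1 and Fraction 2 was larger (1.91 ± 0.21), and Fraction 2 lay above Fraction 3 without overlap (0.59 ± 0.21). GC-PB, at 2.14, 3.92 and 2.53, then overlapped with DZ and Fraction 3. Over the 15 libraries Trp53 and Trp53inp1 had r = -0.925, given as a description over libraries that share 5 groups. The Bcl6 transcript was 3.97 ± 1.03 in Fraction 1, 15.5 ± 2.03 in Fraction 2 and at 0 in GC-PB. The part of Bcl6 in the level of Trp53 was not tested.

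Mdm2 (chromosome 10, 117688875 to 117710758, minus strand), the ligase that degrades p53, had its highest mean in plasmablasts, and at equal totals its means in the 4 germinal centre groups lay between 2.67 and 3.25. It was 4.89, 5.52 and 5.37 in GC-PB, 3.52, 2.90 and 3.33 in DZ, 1.45, 3.15 and 5.11 in Fraction 3, 3.25, 3.11 and 3.06 in Fraction 2 and 3.18, 2.26 and 2.59 in Fraction 1. GC-PB did not overlap with DZ, Fraction 2 or Fraction 1, but Fraction 3 spread from the lowest library of all to one within the range of GC-PB. GC-PB held 1.98 times as many Mdm2 molecules per library total as Fraction 1 (1.41 to 2.79), with a log2 difference of 0.78 ± 0.23 (SE). On the deposited scale the difference was 0.26 ± 0.23 and these groups overlapped. By median ratios, the other scale examined, it was 1.06 ± 0.23 without overlap. The separation of GC-PB from Fraction 1 thus depends on the scale. As deposited, Fraction 1 (7.32 ± 1.16, SD, n = 3) also lay above Fraction 2 (3.14 ± 0.138) without overlap, with a difference of 1.00 ± 0.23 (SE) against -0.18 ± 0.23 at equal totals. Plasmablasts thus had the lowest mean of Trp53 and the highest mean of Mdm2 on all 3 scales examined. As deposited, their Trp53 libraries overlapped with those of DZ and Fraction 3.

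Ccng1 (cyclin G1, chromosome 11, 40748552 to 40755311, minus strand), a p53 target that works with a phosphatase on Mdm2, varied little at equal totals. There its means ran from 2.70 ± 0.242 (SD, n = 3) in Fraction 1 over 3.10 ± 0.198 in Fraction 3, 3.11 ± 0.481 in Fraction 2 and 3.14 ± 1.19 in DZ to 3.74 ± 0.342 in GC-PB. GC-PB libraries (3.96, 3.35 and 3.92) lay above those of Fraction 1 (2.47, 2.69 and 2.95), with a ratio of molecules of 1.38 (0.948 to 2.00) that includes equality. On the deposited scale Fraction 1 had the highest mean (7.42 ± 0.629) and Fraction 3 the lowest (2.32 ± 0.284). There the difference between GC-PB and Fraction 1 was -0.20 ± 0.19 (SE), and Fraction 1 lay above Fraction 2 without overlap (1.04 ± 0.19, against -0.15 ± 0.18 at equal totals). By median ratios GC-PB lay above Fraction 1 without overlap, with a difference of 0.62 ± 0.19, so its direction depends on the scale.

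Gadd45a (chromosome 6, 67035096 to 67037457, minus strand), a stress gene that slows the cell cycle and aids repair, was lower in the CD69hi light zone fractions than in DZ and Fraction 3 at equal totals. It was 0.961, 1.38 and 1.01 in DZ and 1.45, 0.876 and 1.41 in Fraction 3. It was 0.602, 0.577 and 0.438 in Fraction 2 and 0.235, 0.322 and 0.123 in Fraction 1, where its molecules numbered 2, 3 and 1. In GC-PB it was 0.699, 0.394 and 0.413, from 3, 2 and 2 molecules. DZ and Fraction 3 lay above the other 3 groups without overlap, and Fraction 1 lay below all. The separation of GC-PB from Fraction 1 rests on 7 molecules against 6, and as deposited these groups overlapped (0.18 ± 0.20, SE). Fraction 3 held 2.34 times as many molecules per total as Fraction 2 (1.16 to 4.93), and DZ held 4.87 times as many as Fraction 1 (1.93 to 14.6). The step from Fraction 2 to Fraction 1, a ratio of 2.32 with an interval from 0.836 to 7.35, was within counting error. As deposited, no neighbours in the order of the means were apart, and Fraction 2 overlapped with Fraction 3 (-0.33 ± 0.20, SE), GC-PB (0.835 ± 0.202, SD) with DZ (0.876 ± 0.160), and Fraction 1 with Fraction 2 (0.07 ± 0.20, SE). The antisense gene E230016M11Rik overlaps Gadd45a and was at most 0.107 on average, and whether strand was used in counting is not given in the sources used here.

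Zmat3, Sesn2 and Phlda3 were near the limit of detection. Zmat3 (chromosome 3, 32334792 to 32366014), an RNA-binding p53 target, was 0.320, 0.138 and 0.145 in DZ, from 2, 1 and 1 molecules, and 1.01, 0.701 and 0.528 in Fraction 3. It ranged from 0.207 to 0.985 in the 9 libraries of Fraction 2, Fraction 1 and GC-PB, which overlapped with one another. Fraction 3 held 3.90 times as many Zmat3 molecules per total as DZ, with an interval from 1.23 to 16.3. Sesn2 (sestrin 2, chromosome 4, 132492032 to 132510501), which restrains the growth kinase mTORC1, had 3 molecules in DZ, 3 in Fraction 2, 1 in Fraction 1, 1 in GC-PB and 0 in Fraction 3. Phlda3 (chromosome 1, 135766119 to 135769136), an inhibitor of the survival kinase AKT, had a single molecule in all, in GC-PB replicate 3. It was at 0 in the 12 germinal centre libraries. A count of 0 in a library allows up to 3 molecules, a level of 0.322 to 0.699 depending on the library, so differences of Sesn2 and Phlda3 below that size were not detectable at this depth.

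**Figure D3:**
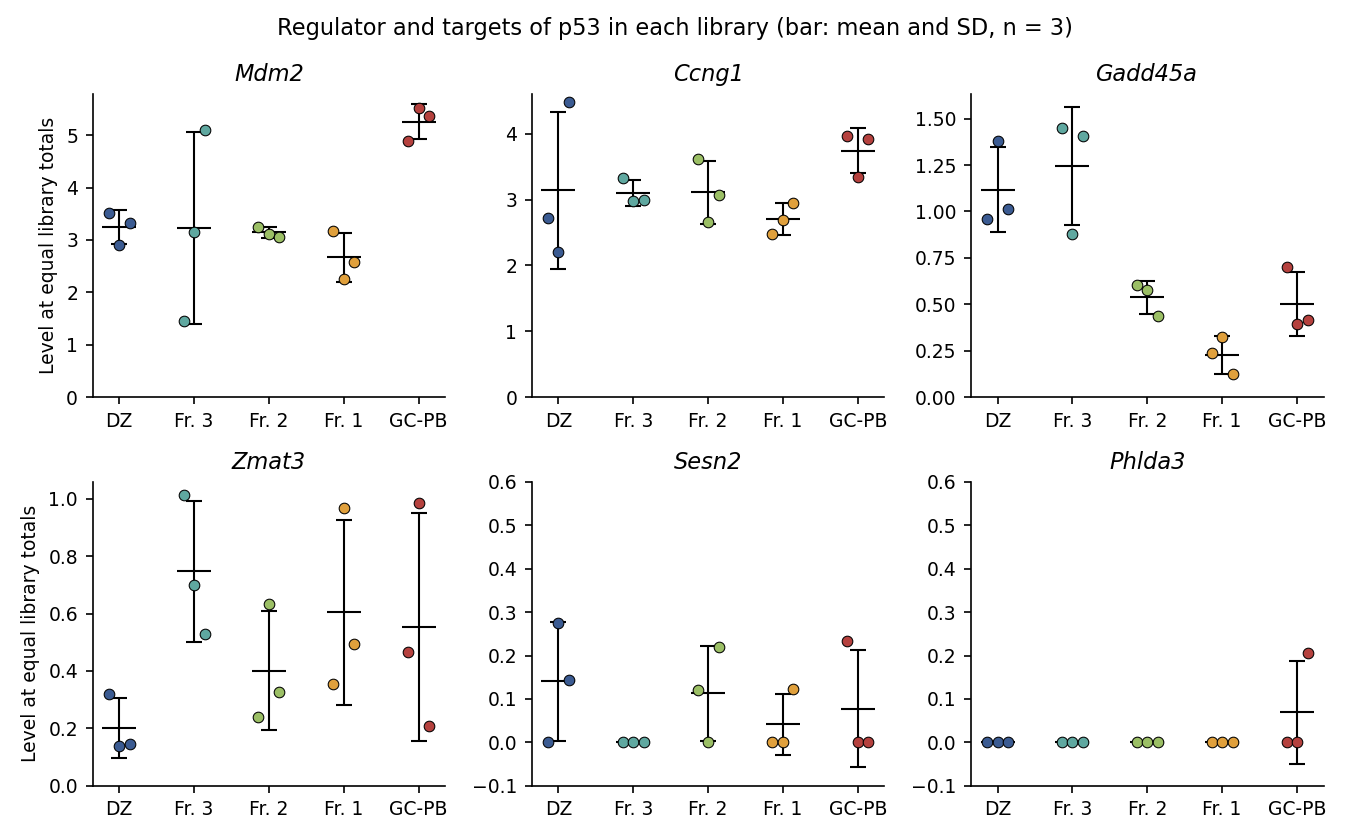
Level at equal library totals of Mdm2, Ccng1, Gadd45a, Zmat3, Sesn2 and Phlda3 in every library of the 5 groups, on linear axes that differ between panels. Points are libraries, and bars are the mean and SD over 3 libraries. Mdm2 is above 4.8 in the 3 GC-PB libraries, Gadd45a lies lowest in Fraction 1, and Phlda3 has 1 library above 0.

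The members whose groups did not overlap are counted here beside the share of all tested genes, and nothing is read from the counts since the members were chosen with these values known. Of the 8 members, 7 were above 0 in at least 3 libraries, and Phlda3 was not. Between Fraction 3 and DZ, Zmat3 was apart on the higher side (7.87% of all tested genes) and Trp53inp1 on the lower (6.43%), 14.3% of genes in all. Between Fraction 2 and Fraction 3, 0 members were apart on the higher side (8.59%) and Trp53inp1 and Gadd45a on the lower (8.38%), 17% in all. Between Fraction 1 and Fraction 2, Trp53 was apart on the higher side (11.9%) and Trp53inp1 and Gadd45a on the lower (16.3%), 28.2% in all. Between GC-PB and Fraction 1, Trp53inp1, Mdm2, Ccng1 and Gadd45a were apart on the higher side (16.1%) and Trp53 on the lower (26.7%), 42.9% in all. Neighbouring comparisons share a group of libraries, so their values are not independent of each other.

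The other genes of the pathway were taken from a list of 72 regulators, targets and paralogues, of which 70 had a row and 63 were tested. Tests are limma fits over all 11190 genes with Benjamini-Hochberg adjusted p-values, called under 0.05. Between Fraction 3 and DZ limma called 0 of 63 higher and 1 lower, against 0.572% of all tested genes higher and 0.483% lower (1.05% in all), and the median log2 difference of the list was -0.02 against 0.00 for all tested genes. The gene was Gdf15, a secreted stress cytokine, with 1, 2 and 2 molecules in the DZ libraries and 0 in Fraction 3 (-0.31 ± 0.07 SE, adjusted p = 0.0369 in limma). Its call was lost when any 1 of 10 libraries was left out, with differences between -0.31 and -0.28, and on the deposited scale (adjusted p = 0.868 in limma). These 10 were replicates 2 and 3 of DZ and of Fraction 1 and all 6 libraries of Fractions 3 and 2. Between Fraction 2 and Fraction 3 limma called 0 of 63, with 6 at an unadjusted p under 0.05, against 0.438% of all tested genes higher and 0.25% lower (0.688% in all), and the list's median was 0.02 against 0.00.

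Between Fraction 1 and Fraction 2, 3 of 63 rose and 3 fell at equal totals. Of all tested genes 3.79% were called higher and 5.25% lower, 9.03% in all. The list's median was -0.07 and that of all tested genes -0.04. Btg2, an antiproliferative target of p53, fell to 0.772 ± 0.0456 (SD, n = 3) from 3.06 ± 0.343 (-1.20 ± 0.18, adjusted p = 0.000256 in limma). Rrm2b, the p53-inducible subunit of ribonucleotide reductase, fell to 0.965 ± 0.335 from 2.60 ± 0.268 (-0.88 ± 0.21, adjusted p = 0.0115 in limma). Ep300, an acetyltransferase of p53 and histones, was called lower here (-0.61) and higher on the deposited scale (0.61), so its direction depends on the scale. Rps27l (0.53), Gadd45b (0.60) and Rpl11 (0.29) rose. Rps27l has a close paralogue in Rps27, and Rpl11 has processed copies, between which the counting may have split reads.

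Of these 6 genes, Btg2 kept its call when any 1 of the 15 libraries was left out, and lost it on the deposited scale (-0.38, adjusted p = 0.0735 in limma). Rrm2b also lost its call on that scale, with a difference of -0.01. Leaving out replicate 2 of Fraction 2 (-0.85) or replicate 1 of Fraction 1 (-0.74) ended the call of Rrm2b. Ep300 did so when replicate 2 (-0.62) or 3 (-0.55) of Fraction 2 or replicate 1 (-0.61) or 3 (-0.55) of Fraction 1 was missing. For Rps27l these were all 3 libraries of Fraction 2 (0.51 to 0.56) and replicates 1 (0.45) and 2 (0.53) of Fraction 1. For Gadd45b they were replicates 1 (0.53) and 2 (0.49) of Fraction 2 and replicates 2 (0.57) and 3 (0.52) of Fraction 1. For Rpl11 they were any 1 of the 12 germinal centre libraries (0.26 to 0.34). As deposited, 31 of 63 were called higher and 0 lower, on a scale where the median difference over all genes was 0.64.

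Between GC-PB and Fraction 1, limma called 9 of 63 higher and 13 lower, a share of 34.9%. Of all tested genes 14.1% were called higher and 22.3% lower, 36.3% in all, so the list lay close to the background. The list's median was -0.11 and that of all tested genes -0.06. On the deposited scale, where the median over all genes was -0.42, 10 were higher and 30 lower, and by median ratios 13 were higher and 13 lower. By role, limma called 38.1% of the p53 family and upstream regulators, 37.5% of the cell cycle arrest targets and 45.5% of the apoptosis targets. It called 33.3% of the repair targets, 12.5% of the metabolism genes and 33.3% of the other targets and paralogues. These shares rest on 6 to 21 genes each, beside 36.3% of all tested genes, and no test was run between roles. Of the targets that arrest the cell cycle 3 of 8 rose and 0 fell. Btg2 was 22.1, 17.5 and 20.9 in GC-PB against 0.824, 0.752 and 0.739 in Fraction 1 (3.57 ± 0.18, adjusted p = 2.64e-12 in limma). With 4.16 ± 0.667 in DZ, 3.98 ± 1.32 in Fraction 3 and 3.06 ± 0.343 in Fraction 2, Btg2 had the same extremes as Trp53inp1. Sfn (14-3-3 sigma) was 4.84 ± 1.97 against 0.579 ± 0.113 (1.84 ± 0.26, adjusted p = 6.35e-06 in limma). Cdkn1a, the gene of the cell cycle inhibitor p21, was called higher at 0.526 ± 0.0822 against 0.0769 ± 0.0670 (0.50 ± 0.13, adjusted p = 0.00461 in limma), on 7.5 molecules against 2. With the fractional count taken as 7, this is a ratio of 6.38 with an interval from 1.22 to 63.0.

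Of the apoptosis targets 1 of 11 rose and 4 fell in GC-PB, beside 14.1% higher and 22.3% lower of all tested genes. Bax, a pore-forming death effector, was 0.407 ± 0.413 (SD, n = 3) against 1.61 ± 0.239 (-0.93 ± 0.24, adjusted p = 0.00387 in limma). Fas (-1.71), the death receptor, Siva1 (-1.39) and Bid (-1.02) also fell and Rps27l (0.75) rose; these are named after their values were seen. The call of Rps27l was lost on the deposited scale. The death genes Bbc3 (0.29, adjusted p = 0.231 in limma) and Pmaip1 (0.39, adjusted p = 0.28 in limma) were not called. Among the p53 family and upstream regulators 2 of 21 rose and 6 fell. Pml, which organises nuclear bodies that recruit p53, was 10.7, 10.2 and 8.47 in GC-PB, against 0, 0.215 and 0.616 in Fraction 1 (3.10 ± 0.20, adjusted p = 7.19e-11 in limma). It had at most 2 molecules in each library of the other 3 groups. Usp7, a deubiquitinase of Mdm2 and p53, was 2.74 ± 1.37 against 9.37 ± 0.898 (-1.55 ± 0.20, adjusted p = 2.18e-06 in limma). The ribosomal proteins Rpl5 and Rpl11, which can bind Mdm2, fell by 0.77 and 0.73 on the log2 scale, with the same limit of processed copies. Atm (-1.48) and Atr (-0.90), the kinases that signal DNA breaks to p53, fell, and the ubiquitin ligase Rchy1 (1.07) rose; these too are named after their values were seen. Mdm4, the partner of Mdm2, was 1.13 ± 0.330 against 0.688 ± 0.150 (0.33, adjusted p = 0.205 in limma).

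Of the repair targets 1 of 6 rose and 1 fell, of the metabolism and autophagy genes 0 of 8 rose and 1 fell, and of the other targets and paralogues 2 of 9 rose and 1 fell. The shares over all tested genes were 14.1% higher and 22.3% lower. The repair counts became 0 and 0 without Fraction 1 replicate 3, where Ercc5 and Rrm2b lost their calls. Without GC-PB replicate 1 these calls were lost too, but Xpc of the same role was then called. The single metabolism gene, Ephx1, lost its call without Fraction 1 replicate 1 or 3 or GC-PB replicate 2 or 3, and the deacetylase Sirt1, 1 of the 6 regulators that fell, lost it without Fraction 1 replicate 1 or GC-PB replicate 1 or 2. The paralogue Trp53inp2 was not called: it was 0.872 ± 0.821 (SD, n = 3) in GC-PB and 0.157 ± 0.0773 in Fraction 1 (0.59 ± 0.26, adjusted p = 0.0907 in limma), and 0.771 ± 0.257 in DZ. Its GC-PB libraries were at 1.63, 0.985 and 0, and without the library at 0 it was called higher (0.98). Rrm2b, one of the repair genes, was 6.67 ± 1.88 in DZ, 3.78 ± 0.758 in Fraction 3 and 0.203 ± 0.207 in GC-PB. At equal totals its groups were ordered without overlap from DZ through Fractions 3, 2 and 1 to GC-PB. Of these steps limma did not call that from DZ to Fraction 3 (-0.66, adjusted p = 0.21) or that from Fraction 3 to Fraction 2 (-0.40, adjusted p = 0.511). As deposited, the mean of Fraction 1 (2.65 ± 0.919) was not below that of Fraction 2 (2.60 ± 0.284).

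**Figure D4:**
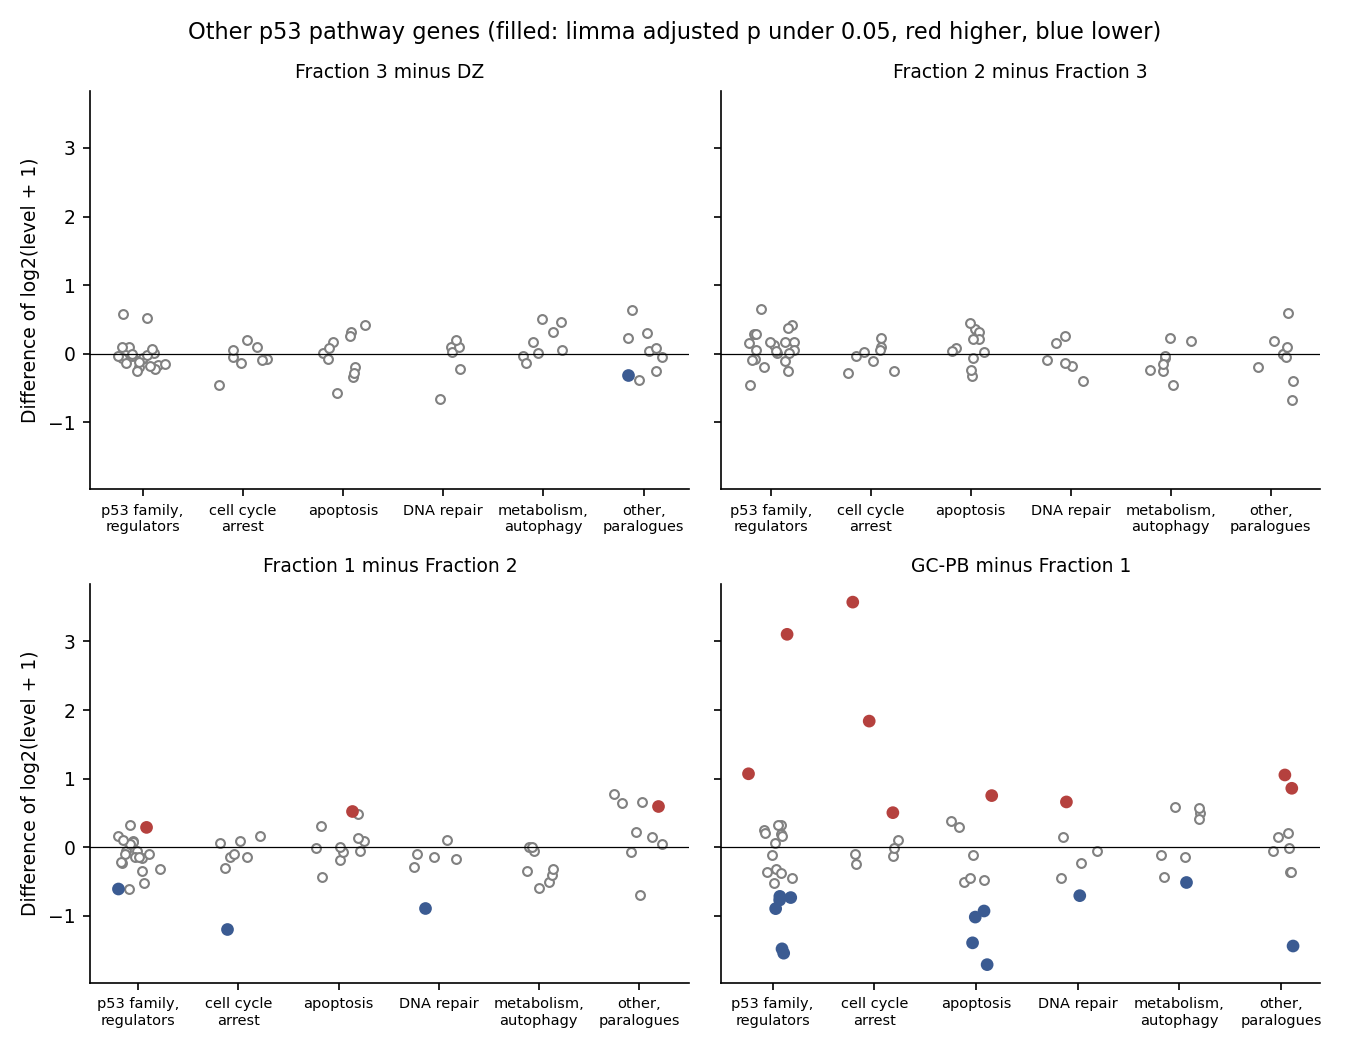
Difference of log2(level + 1) for 63 tested genes of the pathway, the members left out, by role in the 4 comparisons of neighbouring groups. Each point is a gene, filled where limma's adjusted p is under 0.05 (red higher, blue lower), and points are spread sideways only for display. Between GC-PB and Fraction 1, 9 genes are called higher and 13 lower, beside 14.1% and 22.3% of all tested genes, and 3 of 8 cell cycle arrest targets are higher.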

How the data were processed

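RNA of 100 sorted cells per library was measured in 15 libraries. Per the labels' protocols the authors added ERCC spike-in RNA, tagged cDNA with molecular barcodes at oligo-dT priming and amplified it by template switching and PCR. Per the submitters' processing notes TopHat2 (version not given) and mm10 were used. The deposited table holds a signal per gene whose scaling is not stated. In each library 91.0% to 92.6% of values above 0 were whole multiples, within a tolerance of 0.02, of the most frequent value, which is read here as 1 molecule.

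Values were scaled to equal totals without Rn45s. Genes above 0 in 3 or more libraries (11190) entered 1 limma model (3.58.1, R 4.3.3, trended variance prior) of log2(level + 1) with a mean for each group. Ratios of molecules have exact binomial intervals at 95%, for counting error only. The fit was tried on simulated counts, with changes placed in Fraction 1 in genes with a mean level of at least 1. That trial did not cover changes in lower genes or the choice of scale. Positions are from GENCODE M21 on mm10. Python 3.11.15 drew the figures.

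Members and lists were chosen with earlier results of these data known. The naming rule took all members, up to 3 called genes of the list per direction and comparison, Cdkn1a, Mdm4, Bbc3, Pmaip1, Bax and Trp53inp2, and the 5 genes most and least correlated with Trp53inp1. Alternatives changed the scale, pseudocount, filter, libraries in the fit and replicate block. Pidd1 and Trp53cor1 of the list were not analysed here.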

Additional observations from a re-analysis of the deposited data

How the results depend on the processing

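At equal totals limma called 118, 77, 1011 and 4064 genes between Fraction 3 and DZ, Fraction 2 and Fraction 3, Fraction 1 and Fraction 2, and GC-PB and Fraction 1, and 1, 0, 6 and 22 of the 63 other pathway genes. As deposited these were 27, 301, 6183 and 6380 genes and 0, 3, 31 and 40 of the list. The call in the list between Fraction 3 and DZ was also lost (0) on the median-ratio scale, with a mean level of at least 1, with only the 2 groups compared and with the replicate block. Between Fraction 2 and Fraction 3 these settings gave 44, 152, 179 and 40 genes. With only the 2 groups compared, 10 of the list were called between Fraction 1 and Fraction 2. Leaving out 1 library gave 40 to 139, 17 to 166, 551 to 1218 and 3497 to 4077 genes, and 0 to 1, 0, 1 to 7 and 20 to 23 of the list. Of 28 member differences, 7 changed sign as deposited. For Gadd45a in Fraction 1 minus Fraction 2 (0.0687) and Ccng1 in GC-PB minus Fraction 1 (-0.1997) the groups had been apart at equal totals. For Mdm2 (0.9985) and Ccng1 (1.04) in Fraction 1 minus Fraction 2, Ccng1 in Fraction 2 minus Fraction 3 (0.3051), and Ccng1 (-0.0306) and Trp53 (-0.0561) in Fraction 3 minus DZ they had overlapped. Over all settings, 23 of 660 recomputed differences changed sign and 626 moved by less than the spread between replicates. Most of the 626 could not have moved further. Leaving out 1 library, or changing the filter, the groups fitted or the block, cannot shift a difference beyond that spread. On the deposited scale 13 of 28 moved further and 2 reversed. By median ratios 4 moved further, with a pseudocount of 0.5 it was 9, and with a pseudocount of 2 it was 6.

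Same-numbered libraries of neighbouring groups did not deviate together (r between -0.029 and 0.026 over 11190 genes), so no pairing by number was seen. The check cannot exclude pairing, because it weighs all genes alike, also those of few molecules. The replicate block is given as counts only. Depth limits Zmat3, Sesn2, Phlda3 and, in Fraction 1, Trp53inp1 and Gadd45a, which rest on 1 to 3 molecules per library there. It also limits Gadd45a in GC-PB, with 2 to 3 molecules per library. Intervals cover counting error and not the spread between libraries.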
